A study of Mus musculus with 15 samples.

Results

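The genes described here are the 3 PPAR receptors Ppara, Ppard and Pparg, their partner receptor Rxra, the coactivator Ppargc1a, the transcription factor Creb3l3 and 4 genes known to respond to fatty acid signals, Pdk4, Angptl4, Ucp2 and Vnn1. They were chosen by name. Every probe set whose array annotation gives only that gene's symbol was taken, which gave 20 probe sets for 9 of the 10 genes, among 34958 probe sets with 1 symbol for 18194 genes. Ucp2, a mitochondrial uncoupling carrier, was not analysed here. Of the 20 probe sets 16 lay over a signal of 20 (4.32 on the log2 scale) on at least 6 arrays, at least 1 for each of the 9 genes, and were tested. A gene with several probe sets is represented by the one with the highest mean.

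The colon of each mouse, a C57BL/6 male aged 11 weeks, was freed of fat, washed and scraped, and the RNA of the scraping was put on 1 array. For 14 days all mice ate a Western-type diet high in fat (40% of energy) and low in calcium. The 6 control mice ate it plain and the 9 heme mice ate it with 0.5 umol heme per g, heme being the iron pigment of red meat. The low calcium and high fat content were thus shared by the controls, and control replicate 5 was not analysed here. Values are log2 expression as deposited, array medians ran from 3.11 to 3.24, and between 9066 and 9319 genes per array lay over the floor. Precision is limited by how many arrays there are. The labels do not say whether mice shared a cage, so p-values measure the spread between these mice.

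PPARs are nuclear receptors that bind fatty acids and their derivatives and sit on DNA as pairs with RXR. PPAR-alpha drives fatty acid oxidation in liver and intestine, PPAR-delta is expressed broadly, and PPAR-gamma is best known from fat cells and is also abundant in colonocytes. Their target genes are often read as a report of fatty acid signalling inside the cell, since the receptors respond to ligand as well as to their own amount. Creb3l3 (CREB-H) is a factor anchored in the endoplasmic reticulum membrane, is cut free by site proteases, and works with PPAR-alpha on lipid genes in liver and small intestine.

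With heme, Creb3l3 and the target genes rose while the coactivator Ppargc1a, Ppara and Rxra fell, though the diets overlapped for Ppara and Rxra. In the representative probe sets Creb3l3 was 9.21-fold, Pdk4 8.84-fold, Angptl4 7.16-fold and Vnn1 1.98-fold higher in heme mice, and Ppargc1a was 2.85-fold, Rxra 1.28-fold lower, with Ppara at -0.59 on the log2 scale. Ppard and Pparg were not called. Of the 9 genes tested 4 were thus called higher and 3 lower (limma, p adjusted by Benjamini-Hochberg over 9257 genes, threshold 0.05), beside 27.2% of all tested genes called higher and 26.4% called lower. A count of 3 lower among 9 is close to that background. All 9 heme mice lay above all 6 controls for the 4 genes that rose, as they did for 11.2% of all tested genes, and all 9 lay below all controls for Ppargc1a alone, as for 8.93% of all tested genes.

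**Figure D1:**
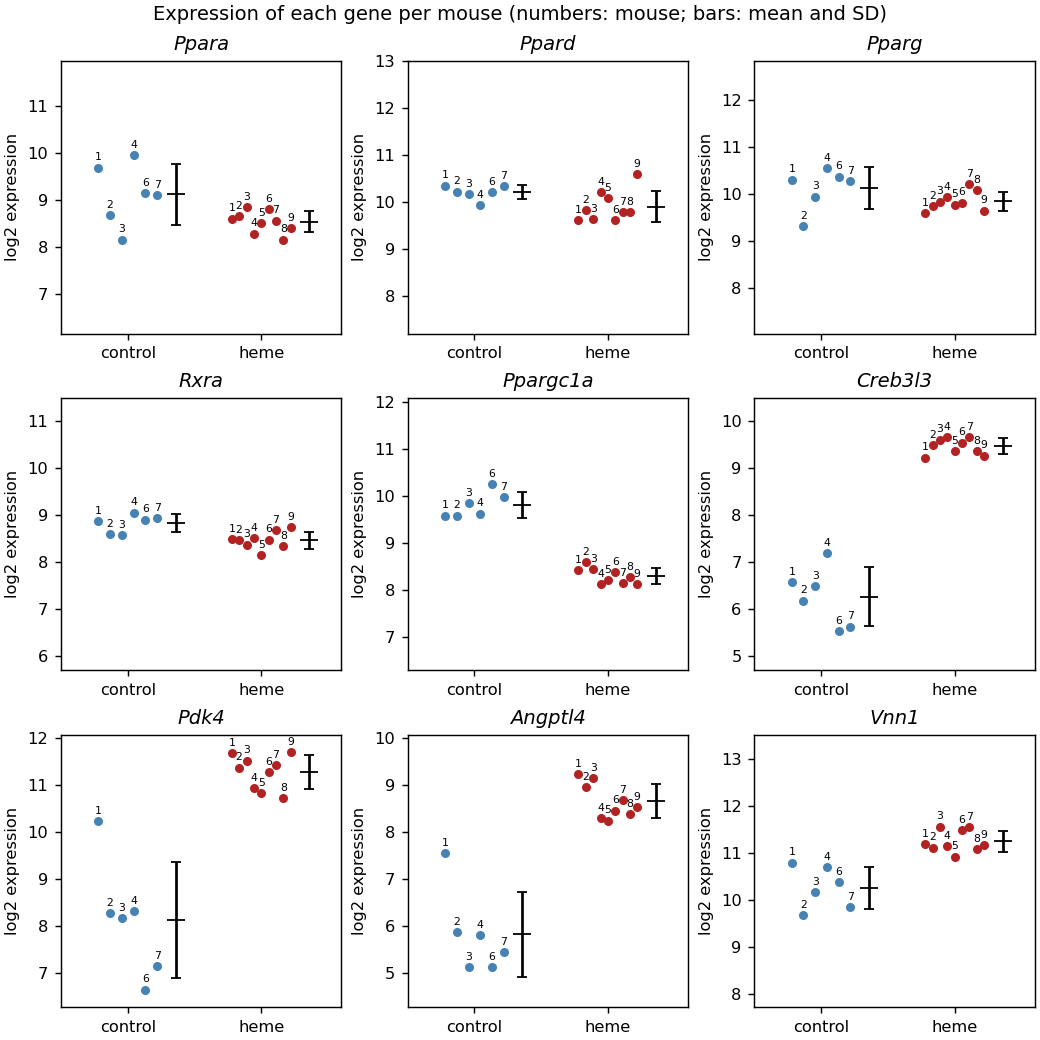
Log2 expression of the representative probe set of 9 genes in each mouse (points, labelled by mouse number), for 6 control and 9 heme mice, with the mean and SD beside each group. Each panel spans the same number of log2 units. The groups are apart for Ppargc1a, Creb3l3, Pdk4, Angptl4 and Vnn1 and overlap for Ppara, Ppard, Pparg and Rxra.

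The deposited data measure transcript levels and not binding, so sequence is shown only to set the promoters of the genes that moved most beside each other. RefSeq start site windows (GRCm38.p6, 300 bases each, most of them before the start) were given for 8 of the 10 genes, 12 windows in all. The PPAR and RXR pair is known to bind DR1, spelled AGGTCANAGGTCA, that is the hexamer AGGTCA repeated with 1 base between. CREB-type factors are known to bind the cyclic AMP response element TGACGTCA and its core TGACG. These letters were searched on both strands, and the longer motifs contain the shorter ones. The exact DR1 letters occur in 0.0396% of 32851 windows and in 0 of the 12, and the full TGACGTCA occurs in 1.79% and in 0 of the 12. The hexamer AGGTCA occurs in 16.3% of all windows and the core TGACG in 20.8%. Of the 12 windows 8 hold at least 1 of these short motifs. The share of all windows with either motif was not counted, so the 8 cannot be set beside these single shares. Pparg, Rxra and Creb3l3 have more than 1 window each. AGGTCA is in windows of Pparg, Rxra and Creb3l3, and TGACG in windows of Ppara, Ppard, Ppargc1a, Creb3l3 and Ucp2. Below are the first window of Creb3l3 (chr10:81092542-81092841, minus strand), that of Pdk4 (chr6:5496229-5496528, minus strand) and that of Ppargc1a (chr5:51567676-51567975, minus strand), with any match to a searched motif in capitals.
Creb3l3: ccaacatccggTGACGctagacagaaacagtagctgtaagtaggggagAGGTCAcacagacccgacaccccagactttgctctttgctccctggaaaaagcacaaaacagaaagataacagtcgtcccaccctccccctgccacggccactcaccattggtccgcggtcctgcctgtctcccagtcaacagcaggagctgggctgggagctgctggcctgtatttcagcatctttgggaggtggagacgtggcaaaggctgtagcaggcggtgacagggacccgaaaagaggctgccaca
Pdk4: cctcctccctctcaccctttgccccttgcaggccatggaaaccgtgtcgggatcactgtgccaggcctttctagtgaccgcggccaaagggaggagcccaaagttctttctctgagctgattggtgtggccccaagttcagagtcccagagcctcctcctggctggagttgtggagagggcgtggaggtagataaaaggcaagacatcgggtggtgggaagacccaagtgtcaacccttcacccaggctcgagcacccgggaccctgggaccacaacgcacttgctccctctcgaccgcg
Ppargc1a: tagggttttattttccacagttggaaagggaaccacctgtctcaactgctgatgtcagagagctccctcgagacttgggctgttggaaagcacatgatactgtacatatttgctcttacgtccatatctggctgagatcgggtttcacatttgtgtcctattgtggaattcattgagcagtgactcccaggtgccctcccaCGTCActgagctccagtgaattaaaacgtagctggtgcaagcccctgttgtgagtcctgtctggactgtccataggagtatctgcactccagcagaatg
The Creb3l3 window holds 1 TGACG and 1 AGGTCA, and a second Creb3l3 window holds none. The Pdk4 window holds no match, and the Ppargc1a window holds 1 core on the opposite strand, written CGTCA. These matches describe letters in short windows and do not show a binding site. Angptl4 and Vnn1 have no window shown.

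Among the receptors, Ppara showed the widest spread in control mice. In heme mice Ppard did, with an SD of 0.33 beside 0.23 for Ppara in the representative probe sets. PPAR-alpha is the receptor activated by fatty acids and fibrates. In its representative probe set (1439675_at) the lowest, median and highest values were 8.16, 9.12 and 9.96 in control mice and 8.16, 8.56 and 8.85 in heme mice. Controls 1, 4, 6 and 7 lay above every heme mouse, control 2 lay among them, and control 3 lay below them all. The mean was 9.12 ± 0.66 (SD, n = 6) in control and 8.54 ± 0.23 (n = 9) in heme mice, a log2 change of -0.59 ± 0.22 (SE, adjusted p = 0.0309, limma). The other probe sets moved the same way. Probe set 1457721_at went from 8.66 ± 0.62 to 7.99 ± 0.26 (change -0.67 ± 0.21, adjusted p = 0.0157, limma) and 1449051_at from 9.25 ± 0.99 to 8.45 ± 0.39 (change -0.80 ± 0.33, adjusted p = 0.0525, limma). The probe set with the largest change therefore missed the threshold, its control SD being the largest of the 3. The representative probe set no longer passed when control mouse 1 (-0.47), 4 (-0.42) or 6 (-0.58) or heme mouse 4 (-0.55) or 8 (-0.54) was left out, nor without control mice 2 and 4 and heme mouse 6 together (-0.52, adjusted p = 0.0578, limma). With the mean of the smooth muscle genes as a covariate the change was -1.04, and with the mean of 3 distal Hox genes it was -0.38, called in both (adjusted p = 0.0484 for the latter, limma). In the fit over all probe sets the call of 1439675_at held in 18 of 27 alternatives, and there the Hox covariate and leaving out control mouse 7 ended it too.

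Ppard encodes PPAR-delta, a receptor found in most tissues. Its tested probe set (1439797_at) had lowest, median and highest values of 9.95, 10.22 and 10.36 in control mice and 9.62, 9.79 and 10.60 in heme mice. Of the heme mice 6 lay below all controls, while heme mouse 9 lay above them all. The change was -0.30 ± 0.14 (SE) and was not called (adjusted p = 0.0751, limma). Without heme mouse 9 it was -0.39 and was called (adjusted p = 0.00546, limma), and without control mouse 4 it was -0.35 (adjusted p = 0.0492, limma). The distal Hox covariate gave -0.36 (adjusted p = 0.0417, limma). A further Ppard probe set (1425703_at) lay under the floor in 14 of 15 mice, with heme mouse 9 at 4.55 as the exception. Heme mouse 9 was thus the highest mouse in both Ppard probe sets.

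Pparg encodes PPAR-gamma. Its single probe set (1420715_a_at) ran from 9.31 over a median of 10.30 to 10.55 in control mice and from 9.59 over 9.82 to 10.21 in heme mice. Controls 1, 4, 6 and 7 lay above every heme mouse and control 2 lay below every heme mouse. The change was -0.28 ± 0.16 (SE) and was not called (adjusted p = 0.141, limma). Control mouse 2 decided that call, since without it the change was -0.44 (adjusted p = 0.00337, limma). Adding the smooth muscle mean to the model gave -0.77 (adjusted p = 0.00419, limma). Control mouse 2 is the mouse with the highest level of smooth muscle genes, at a mean of 9.45 where the other 5 controls ran from 5.86 to 7.34. It also had the highest mean of stromal genes, 9.77 against 6.00 to 7.43.

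Rxra encodes the retinoid X receptor alpha, one of the RXR partners with which PPARs bind DNA. Its tested probe set (1454773_at) ran from 8.57 over a median of 8.88 to 9.05 in control mice and from 8.13 over 8.47 to 8.74 in heme mice. Of the heme mice 7 lay below all controls, and the ranges overlapped only through heme mice 7 and 9. The change was -0.36 ± 0.09 (SE, adjusted p = 0.00489, limma). Its 2 other probe sets were under the floor in all 15 mice, so they do not bear on the change. Their means were higher in heme mice, from 3.69 to 3.93 in 1425762_a_at and from 1.80 to 1.94 in 1430497_at. Averaging all 3 gave 0.0085 (adjusted p = 0.931, limma).

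The coactivator Ppargc1a fell most among the genes of this set. PGC-1 alpha binds nuclear receptors, PPARs among them, and is known for raising mitochondrial and oxidative gene expression. In its representative probe set (1456395_at) values ran from 9.58 over a median of 9.73 to 10.25 in control mice and from 8.12 over 8.27 to 8.59 in heme mice, so the groups were almost 1 log2 unit apart at their nearest points. The mean went from 9.80 ± 0.27 (SD, n = 6) to 8.29 ± 0.17 (n = 9), a change of -1.51 ± 0.11 (SE, adjusted p = 5.21e-08, limma), and 80 of the 9257 tested genes fell more. All 5 Ppargc1a probe sets were called lower with all 9 heme mice under all controls, with changes from -2.01 to -1.39. The largest fall was in 1460336_at, from 8.73 ± 0.34 to 6.73 ± 0.32 (adjusted p = 1.69e-07, limma), 4.02-fold. Over all tested probe sets with 1 symbol, 26.1% were called higher and 24.3% lower. Of the 16 tested here 5 were called higher, 8 lower and 3 were not called. Of the 8 lower, 5 are the Ppargc1a probe sets and the remainder are of Ppara and Rxra. The 8 thus stand for 3 genes and are not separate results.

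**Figure D2:**
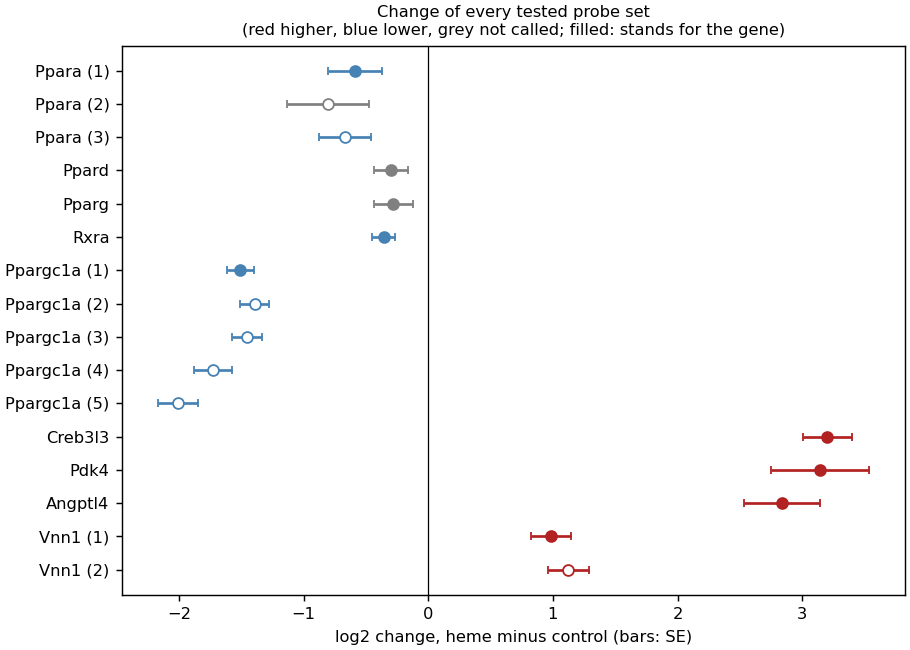
Log2 change, heme minus control, of the 16 tested probe sets with its SE (bars), coloured by call. Numbers in brackets order the probe sets of a gene by mean level. The 5 Ppargc1a probe sets lie between -2.01 and -1.39 and the 3 Ppara probe sets between -0.80 and -0.59, while Creb3l3, Pdk4, Angptl4 and Vnn1 lie to the right of 0.

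Creb3l3 had the largest rise of the set as reported, with Pdk4 close to it (3.14 ± 0.39, SE). The order turned in some alternatives. Without control mouse 1 Creb3l3 was at 3.26 and Pdk4 at 3.56, and with the smooth muscle covariate they were at 2.80 and 3.13. The single Creb3l3 probe set (1424688_at) ran from 5.52 over a median of 6.33 to 7.18 in control mice and from 9.22 over 9.49 to 9.67 in heme mice. The highest control, mouse 4, lay well below the lowest heme mouse. The mean went from 6.26 ± 0.62 (SD, n = 6) to 9.46 ± 0.17 (n = 9), a change of 3.20 ± 0.20 (SE, adjusted p = 1.38e-08, limma), and 12 of the 9257 tested genes rose more. The SD among controls was 3.72 times that among heme mice, a ratio that 1.43% of tested genes exceeded. Other members of the family and the proteins that process them are given for comparison. Of 10 tested genes of this list 3 were called higher and 4 lower, where 27.2% and 26.4% of all tested genes were, so the count higher is near that background, with a median change of 0.01 beside -0.01 over all tested genes. The relatives Creb3l4 (-0.69 ± 0.20, SE) and Creb3l1 (-0.68 ± 0.14) fell, and Insig1, which holds sterol sensors in the endoplasmic reticulum, rose by 0.46 ± 0.13. The proteases that cut such factors went apart, Mbtps1 at -0.29 ± 0.04 and Mbtps2 at 0.39 ± 0.07, a pair named after their values were seen. Of 10 genes known as Creb3l3 targets 3 were over the floor. Apoc2, an activator of lipoprotein lipase, rose from 4.88 ± 0.91 to 8.47 ± 0.45 and Cidec, a lipid droplet protein, from 5.27 ± 0.89 to 8.13 ± 0.25, in all 9 heme mice above all controls, while Apob was at -0.03 ± 0.40 and not called. Apoc2 was under the floor in 1 of 6 controls, so the size of its change is set partly against background. Apoa4, Apoa1, Apoc3, Apoa5, Fgf21, G0s2 and Mttp did not pass the signal filter. Of these, Apoa1 was over the floor in 2 of 6 controls, up to 9.94, and in 0 of 9 heme mice, the highest at 3.10. Apoa4 was over it in 1 control (4.88) and 0 heme mice, and Mttp in 1 control and 2 heme mice. The signal of Apoa1 and Apoa4 was thus seen in controls only, opposite to the rise of Creb3l3.

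Pdk4, the kinase that shuts pyruvate dehydrogenase and so spares glucose when fat is burned, rose in all heme mice. Its probe set (1417273_at) ran from 6.64 over a median of 8.22 to 10.22 in control mice and from 10.72 over 11.37 to 11.70 in heme mice. Control mouse 1 stood alone at 10.22, close to the heme mice, and the other 5 controls lay at 8.32 or less. The mean went from 8.13 ± 1.23 (SD, n = 6) to 11.27 ± 0.37 (n = 9), a change of 3.14 ± 0.39 (SE, adjusted p = 1.07e-05, limma), and without control mouse 1 it was 3.56. Of 8 other genes of the pyruvate dehydrogenase system 3 were called higher and 2 lower, close to the 27.2% and 26.4% of all tested genes. The kinases Pdk3 (1.26 ± 0.17, SE) and Pdk1 (0.47 ± 0.07) and the enzyme subunit Pdhb (0.35 ± 0.06) rose.

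Angptl4 encodes a secreted inhibitor of lipoprotein lipase that fasting and PPAR ligands are known to raise. Its tested probe set (1417130_s_at) ran from 5.13 over a median of 5.63 to 7.55 in control mice and from 8.25 over 8.53 to 9.23 in heme mice. Control mouse 1 again stood above the other 5 controls, which had a mean of 5.48 ± 0.36 (SD). The group means were 5.82 ± 0.90 (n = 6) and 8.66 ± 0.37 (n = 9), a change of 2.84 ± 0.30 (SE, adjusted p = 2.58e-06, limma), and without control mouse 1 it was 3.19. The other Angptl4 probe set (1453410_at) was under the floor in all mice, and the mean of both gave 1.47. Lipoprotein lipase itself, Lpl, rose by 0.96 ± 0.20 and the related endothelial lipase Lipg by 1.45 ± 0.21 (SE), and the lipase maturation factor Lmf1 was at -0.23 ± 0.09 and not called (adjusted p = 0.0504, limma). Angptl1, Angptl6, Angptl7 and Gpihbp1 did not pass the filter.

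Vnn1 encodes vanin 1, an enzyme on the epithelial surface that splits pantetheine to vitamin B5 and cysteamine and is a known PPAR-alpha target. Its representative probe set (1418486_at) ran from 9.68 over a median of 10.27 to 10.79 in control mice and from 10.92 over 11.17 to 11.56 in heme mice. The gap between the highest control, mouse 1, and the lowest heme mouse was small. The change was 0.98 ± 0.16 (SE, adjusted p = 1.32e-04, limma) and that of the other probe set (1447845_s_at) 1.12 ± 0.17. When the smooth muscle mean was added to the model, the Vnn1 change was 0.57 (adjusted p = 0.0458, limma). Of 8 tested genes of the pantothenate and coenzyme A pathway 4 were called higher and 1 lower, beside 27.2% and 26.4% of all tested genes, and the 4 became 2 with the smooth muscle mean in the model. Ppcs, which acts after pantothenate kinase, rose by 1.25 ± 0.10, biotinidase (Btd), a relative of the vanins, rose by 0.38 ± 0.13, and Pank4 fell by 0.37 on the log2 scale. Of the uncoupling carriers related to Ucp2, Ucp1, Ucp3 and Slc25a27 did not pass the filter, and Slc25a14 (-0.07 ± 0.11) and Slc25a30 (-0.09 ± 0.11) were not called.

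Other genes known as PPAR targets rose with these. Over 4 lists with 74 different genes, 61 were tested. Of these 45 were called higher, 5 lower and 11 neither, where 27.2% of all tested genes were called higher and 26.4% lower. The same shares stand beside each list below. The median change of the 61 was 0.60 beside -0.01 over all tested genes. With the smooth muscle mean in the model 33 of the 61 were called higher and 7 lower. The lists were chosen with earlier results of these data known, so these counts are a description. In mitochondrial fatty acid oxidation 13 of 17 rose and 0 fell, among them the thioesterase Acot2 (2.79 ± 0.21, SE), the dehydrogenase Acads (1.23 ± 0.21) and the carnitine transferase Cpt2 (0.92 ± 0.07). In peroxisomal and microsomal oxidation 12 of 15 rose and 0 fell, led by Acot1 (2.67 ± 0.22), Acot4 (2.29 ± 0.18) and the thiolase Acaa1b (2.13 ± 0.19). Acot1 with Acot2 and Acaa1a with Acaa1b are close copies, so which of a pair was measured is uncertain, and Acot4 was under the floor in 3 of 6 controls. In lipid uptake and storage 15 of 18 rose and 1 fell. Here Fabp1, the liver-type fatty acid binding protein, rose by 6.13 ± 0.38 and malic enzyme Me1 by 3.58 ± 0.32. The glycerol channel Aqp3 was under the floor in all controls and over it in all 9 heme mice. Counted from the floor, its rise was 5.39-fold or more. Aqp3 passed the signal filter through the heme mice alone, so its call could hardly be other than higher and its p-value is not given. It is included in the 15 and the 45 counted higher.

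The remaining PPAR targets were split, 5 higher and 4 lower of 11, beside 27.2% and 26.4% of all tested genes. The 5 became 3 with the smooth muscle mean in the model. Hilpda, a lipid droplet protein that restrains lipolysis, rose by 2.60 ± 0.13 (SE). Cyp27a1, the sterol hydroxylase of bile acid synthesis, fell from 8.21 ± 0.18 to 5.38 ± 0.32 (SD), and Abca1, the cholesterol exporter, fell from 7.20 ± 0.29 to 5.82 ± 0.42, with no overlap between the groups for either. Not all classical targets were called higher. Cpt1a, the gate of mitochondrial fatty acid entry, was at 0.12 ± 0.08 and Cd36, a fatty acid uptake protein, at 0.69 ± 0.40, neither called. Cd36 was over the floor in only 3 of 6 controls and 8 of 9 heme mice, so its values do not show a lack of change. Txnip fell by 0.32 on the log2 scale, and these 3 genes were named after their values were seen. The fall of the fatty acid transporter Slc27a1 (-0.32 ± 0.13, adjusted p = 0.0489, limma) was lost without control mouse 1, 2, 3, 4 or 6 or without heme mouse 2, 3, 4, 5, 8 or 9, each left out singly.

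**Figure D3:**
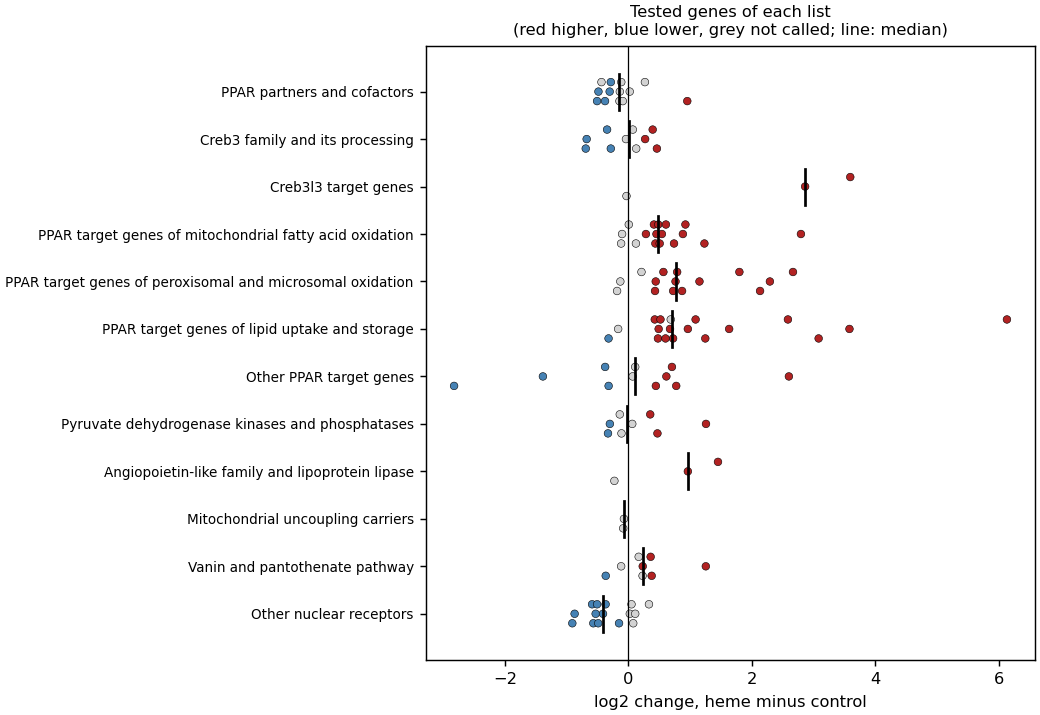
Log2 change, heme minus control, of each tested gene in 12 lists (points, coloured by call) with the list median (line). PPAR target genes of oxidation, uptake and storage lie mostly to the right of 0, up to Fabp1 at 6.13, while most other nuclear receptors lie to the left.

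Of 13 tested genes whose products are partners or cofactors of PPARs 1 was called higher and 5 lower, beside 27.2% and 26.4% of all tested genes, with a median of -0.15. The 5 became 2 with the smooth muscle mean in the model. Lpin2, a phosphatidate phosphatase of a family that also acts as a coactivator, rose by 0.95 ± 0.15 (SE). The corepressor Nrip1 (-0.51 ± 0.10) and the coactivator Ncoa1 (-0.49 ± 0.10) fell. The close relative of the coactivator, Ppargc1b, was at 0.02 ± 0.07 and not called, against the fall of Ppargc1a, and Rxrb, the second RXR, fell by 0.38 on the log2 scale, both named after their values were seen. Among 15 other nuclear receptors 0 were called higher and 10 lower, beside the same shares of all tested genes, with a median of -0.41. The largest fall was in Nr1d1, the clock receptor REV-ERB alpha (-0.91 ± 0.31). The mineralocorticoid receptor Nr3c2 (-0.59 ± 0.07) and the vitamin D receptor Vdr (-0.57 ± 0.09) lay below all controls in all 9 heme mice, a pair named after their values were seen. The falls of Ppara and Rxra were thus of a size seen in other receptors.

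Level differences within the diet groups followed certain mice. Over 65 tested genes, the 61 listed targets with Creb3l3, Pdk4, Angptl4 and Vnn1, control mouse 1 was the highest control for 25 and control mouse 4 for 30. Together these mice held the highest control value in 84.6% of the 65 genes, beside 34.7% of all tested genes. They were picked after their values in the 65 genes were seen, so the higher share is set partly by that choice. Control mouse 2 was the lowest control for 31 of the 65. The mean of the distal Hox genes was 3.19 in control mouse 4 and 6.81 in control mouse 1, while the remaining controls had 8.04 to 8.94 and heme mice 7.78 to 8.63. None of the 3 Hox genes was called between the diets. With their mean as a covariate Creb3l3 was at 3.39, Pdk4 at 3.30, Angptl4 at 2.96 and Vnn1 at 1.11, beside 3.20, 3.14, 2.84 and 0.98 without it. That mean is set apart mainly by control mouse 4, and the part of colon position was not tested.

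**Figure D4:**
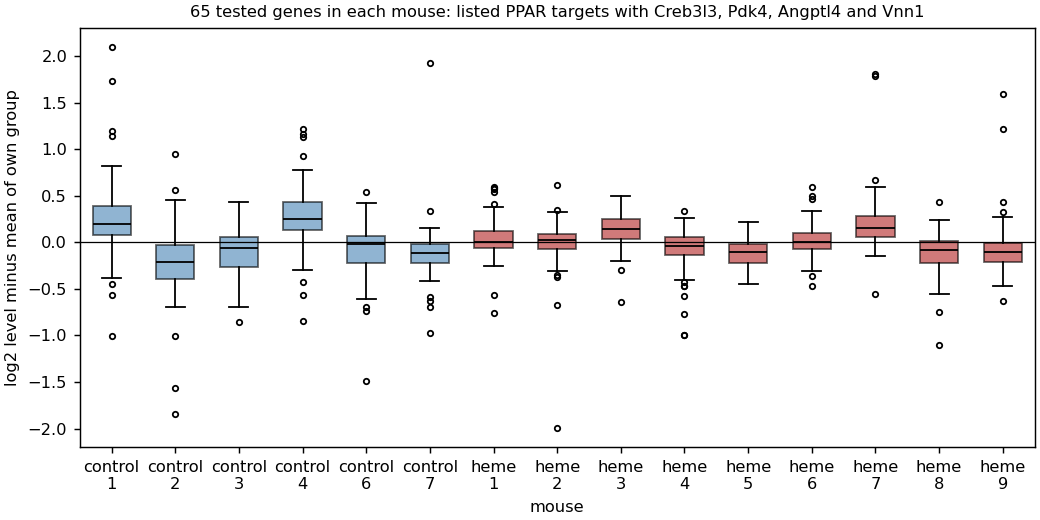
Deviation of 65 tested genes (listed PPAR targets with Creb3l3, Pdk4, Angptl4 and Vnn1) from the mean of their own diet group, per mouse, as log2 units. Boxes span the quartiles with the median as a line, whiskers reach the farthest value within 1.5 box lengths, and circles lie beyond. Control mice 1 and 4 have the highest medians of the controls (0.19 and 0.25) and control mouse 2 the lowest (-0.21).

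The cell content of the scrapings was read from marker lists. In a scraping, fewer cells of a type and less RNA per cell cannot be told apart. Beside every marker count given here, 27.2% of all tested genes were called higher and 26.4% lower. All 10 epithelial markers were over the floor, with means of 13.33 to 13.40 in control and 13.34 to 13.48 in heme mice. Of these markers 3 were called higher and 1 lower. All 5 tested smooth muscle genes of 10 listed fell, with means of 5.86 to 9.45 in control and 4.51 to 6.36 in heme mice. With that mean as a covariate Creb3l3 was at 2.80, Pdk4 at 3.13, Angptl4 at 2.83 and Ppargc1a at -1.58, all called (limma). PPAR-gamma, Pdk4 and Angptl4 are also expressed by fat cells. Of the 7 fat cell markers with a probe set 4 were over the floor, with means of 6.55 to 8.61 in control and 6.89 to 9.18 in heme mice. Adipoq, the fat cell hormone adiponectin, ran from 3.19 to 7.75 in control and from 2.60 to 7.67 in heme mice and was not called (-0.36 ± 0.85, SE), and Lep, Retn and Lipe did not pass the filter. Cidec, also a Creb3l3 target, was the only one of the 4 called. Of 7 liver markers with a probe set Alb, Apoh, Cyp2e1, F2 and Ahsg did not pass the filter. The other two were over it, Ttr, the carrier transthyretin, not called (0.39 ± 0.40, SE) and Tat, tyrosine aminotransferase, lower (6.86 ± 0.46 to 4.63 ± 0.46, SD) with all 9 heme mice below all controls. Of 7 goblet cell markers 4 fell and 0 rose, with a median of -0.19 and means of 13.78 to 14.03 in control and 13.63 to 13.78 in heme mice. The 4 were the mucin Muc2 (-0.19 ± 0.04, SE), Tff3 (-0.19 ± 0.06), Clca1 (-0.32 ± 0.08) and the mucus protein Fcgbp (-0.54 ± 0.08), and the part of goblet cells in the results above was not tested. None of the 5 macrophage markers over the floor was called, nor Jchain, the only one of 8 lymphocyte markers over it. None of the endothelial or neural markers passed the filter. The part of smooth muscle content in the receptor changes was not tested beyond these values.

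Within the diet groups, some genes tracked these across mice. Likeness was the Pearson correlation over 15 arrays once each diet group's mean was taken out, and the 3 genes most like each are the highest of all other tested genes, so high values are set partly by that choice. The pattern of Pdk4 was most like Mgll (r = 0.87), the lipase that ends triglyceride breakdown, then Mideas (0.87) and Angptl4 (0.86). That of Angptl4 was most like Tor1aip2 (0.89), Siah2 (0.87) and Pdk4 (0.86). Ppara was most like Cyp4b1 (0.90), a cytochrome that is itself on the target list and was not called between diets, Spryd7 (0.90) and Ces1g (0.89). Pparg was most like Eci1 (0.93), an enzyme of fatty acid oxidation, Arl14 (0.91) and Rmdn1 (0.91). Vnn1 was most like Ncoa7 (0.91), Hsdl2 and Fbp1 (both 0.91). Creb3l3 was most like Sprr1a (0.86), then Pla2g6 (0.83) and Coa3 (0.82). For Creb3l3 this likeness lay in the 6 controls, where r was 0.94 with Sprr1a, 0.91 with Pla2g6 and 0.99 with Coa3, while among the 9 heme mice it was 0.33, 0.58 and 0.34. For the genes named with Pparg it was 0.97 to 0.99 among controls and 0.61 to 0.70 among heme mice. Rxra was most like Kif21b (0.88), Ppard like Cdx1 (0.90) and Ppargc1a like Bnip3 (0.84). These values share their arrays, the mice that stood apart included.

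**Figure D5:**
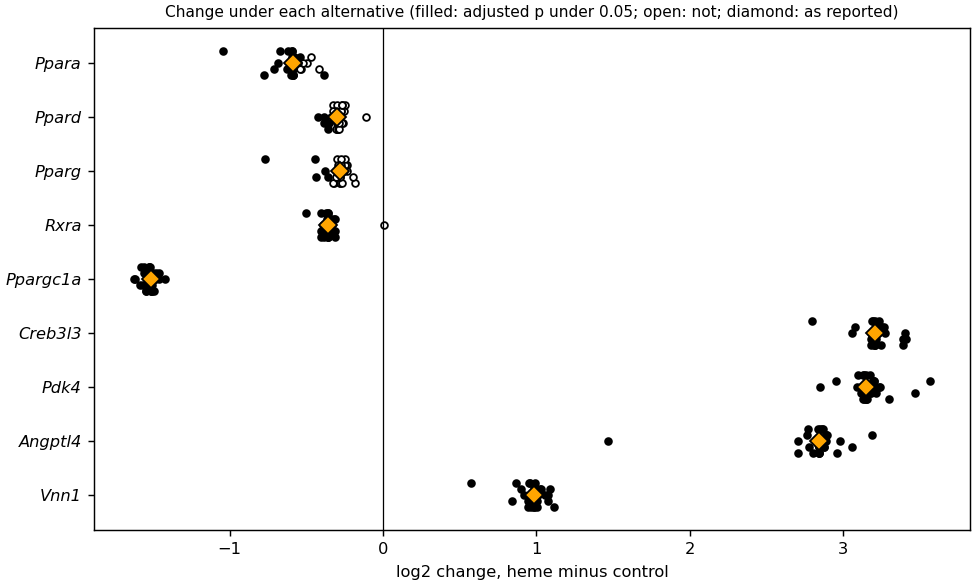
Log2 change, heme minus control, of 9 genes as reported (diamonds) and under 28 other ways of processing the values (circles, filled where the adjusted p was under 0.05). Ppargc1a, Creb3l3, Pdk4, Angptl4 and Vnn1 were called in all 28, while circles of Ppara, Ppard, Pparg and Rxra are mixed.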

How the data were processed

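Each of 15 colon scrapings was measured on 1 Affymetrix mouse array. The authors deposited 1 log2 value for each probe set, made with GCRMA 2.22.0 per the submitters' processing notes, a method that takes probe base composition into account. Detection calls were not used here, hence the floor at a signal of 20.

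Probe sets were named from the platform annotation (932 with several symbols and 9211 not listed were left out). The diets were set against each other in R 4.3.3 with lmFit and eBayes of limma 3.58.1, once over 9257 genes (1 probe set each, that of highest mean) and once over 15717 probe sets, adjusted by Benjamini-Hochberg over each. Results for single probe sets that do not represent a gene, and all adjusted p given for them, come from the second fit. The procedure was tested on simulated data. Genes of a list were named by rule, the 3 called with the largest change, or all where up to 5 were tested (1 for other nuclear receptors), and Ucp2 and control replicate 5 were not analysed here. The members and lists were chosen with earlier results of these data known.

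No 2 arrays were identical (highest correlation 0.997). Alternatives were other filters, probe set averaging, scaling, variance models, array weights, the replicate block, covariates and leaving mice out.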

Additional observations from a re-analysis of the deposited data

Results flagged for a closer look

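The Angptl4 level of control mouse 1 lay far from the other controls. It was 7.55, with the next control at 5.86 and the lowest at 5.13, so that the gap filled 0.696 of the range of the group, above the limit of 0.625 for 6 samples. It was 1 of 32 groups of values examined, and chance flags about 1 in 20. The same mouse had the highest Pdk4 of the controls (10.22), where the gap stayed within the limit.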

How the results depend on the processing

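Of 28 alternatives, 15 left out 1 mouse. Ppargc1a, Creb3l3, Pdk4, Angptl4 and Vnn1 kept direction and call in all 28, with changes from -1.62 to -1.42, 2.80 to 3.40, 2.85 to 3.56, 1.47 to 3.19 and 0.57 to 1.11. In the fit over genes the call of Ppara held in 21 and that of Rxra in 27. Rxra turned to 0.0085 with probe sets averaged, where 2 of 3 were under the floor and had higher means in heme mice. The count of the 9 genes called lower was 5 with array weights against 3, and 4 were called higher in all 28. With the smooth muscle covariate 2663 probe sets were called higher against 4103, and among the lists 2 partners and cofactors were lower against 5, 1 Creb3 family gene was higher against 3 and 2 lower against 4, 3 other PPAR targets were higher against 5 and 2 pantothenate genes against 4. Averaged probe sets gave 2 Creb3 family genes lower against 4. With the replicate number as a block (replicate block) 3 PPAR targets and 3 partners were lower against 5 and 5, 2065 genes were higher and 1899 lower, Ppara was at -0.50 (adjusted p = 0.186, limma) and Ppard at -0.42 (adjusted p = 0.0331, limma), the calls of the other 7 members did not change, deviations of same-numbered mice correlated from -0.19 to 0.20, over 0.1 in 1 of 6 pairs, and 2 of 6 controls correlated best with the heme mouse of their own number. PPAR targets called higher ran from 33 to 46 over all alternatives, and those called lower from 3 to 7. The 33 and the 7 came with the smooth muscle covariate. The targets of mitochondrial oxidation called higher ran from 9 to 14. Other list counts that moved by over 1.5 times were 2 or less as reported. The cause of these shifts was not tested. Levels near background limit Acot4, Apoc2, Aqp3 and Cd36.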

Other observations

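Among the heme mice, mice 3 and 7 held the highest heme value in 58.5% of the 65 genes that comprise the listed PPAR targets with Creb3l3, Pdk4, Angptl4 and Vnn1, beside 16.9% of all tested genes. These mice were picked after their values in the 65 genes were seen, so the higher share is set partly by that choice. The mean of the fat cell markers over the floor was 7.65 in heme mouse 3 and 9.18 in heme mouse 7, in a range of 6.89 to 9.18 among heme mice. A probe set annotated to both Ppard and 1810013A23Rik was under the floor in all mice, from 3.17 to 3.51 in control and from 3.37 to 3.71 in heme mice, and entered no comparison.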
